A study of Homo sapiens with 6 samples.

Results

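The genes described here encode the mitochondrial protein import machinery: the translocase of the outer membrane (TOM), the translocases of the inner membrane (TIM22 and TIM23), the sorting and assembly machinery (SAM), the intermembrane space oxidation pathway, the import motor and the presequence peptidase. They are a list of 34 genes given by name, chosen by their role in import but with earlier results of these data known, and 33 of the 34 were measured in a table of 34869 genes. TOMM6 was not analysed here. All 33 had a mean of at least 1 FPKM (reads scaled to gene length and library size) over the 6 libraries and so entered the test, which covered 12782 genes. The cells were NCI-H295R, a steroid-making line established from a human adrenocortical carcinoma, and their RNA was sequenced. There were 3 libraries of cells carrying a lentiviral shRNA against TPD52 (shTPD52) and 3 of cells carrying a lentiviral non-targeting shRNA (shCtrl). All 6 libraries therefore come from transduced cells of 1 line. The labels do not say how many hairpins against TPD52 were used, whether a clone was picked, or how long after transduction the RNA was taken.

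Nearly all mitochondrial proteins are encoded in the nucleus, made in the cytosol and carried into the organelle. Precursors cross the outer membrane through TOM and then part ways. Proteins with a cleavable presequence go through TIM23 and are drawn into the matrix by the mtHSP70 motor, carriers go to TIM22 with the help of small TIM chaperones, and barrel proteins of the outer membrane are inserted by SAM. In steroid-making cells the inner membrane enzyme CYP11A1 and its partner FDX1 use this route, as do the CYP11B enzymes, and STAR carries a presequence as well.

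TPD52 RNA, the check of the labels, was at 1.42, 1.18 and 1.29 FPKM in shCtrl replicates 1, 2 and 3 and at 0.630, 0.635 and 0.655 FPKM in shTPD52 replicates 1, 2 and 3. On the log2(FPKM + 0.5) scale, used for every fold change below, it fell by 0.65 with an SE of 0.14 (limma, p adjusted by Benjamini-Hochberg = 0.0218), and the groups did not overlap. The adrenocortical markers listed for this line (10 of 10) had a mean above 1 FPKM, and their summed level was 411 to 434 FPKM in shCtrl and 468 to 480 FPKM in shTPD52. The sum hides opposite changes. HSD3B2, MC2R, CYP11B2, CYP21A2 and FDX1 rose to between 1.28 and 3.67 times the control mean (adjusted p under 0.05 by limma). NR0B1 fell to 0.612 times (adjusted p = 0.00886 by limma). NR5A1, STAR, CYP11A1 and CYP17A1 missed the threshold. No listed marker of fibroblasts (5 genes), endothelium (4), leukocytes (4) or chromaffin cells (3 of 4 measured) reached a mean of 1 FPKM. Their summed levels were at most 1.28 FPKM in any library. All 34869 measured genes were above 0 in at least 1 library, so no measured marker could be at 0 throughout. Whether the unmeasured chromaffin marker was at 0 cannot be told. Library totals worked back from the FPKM ran from 29544341 to 38396624 reads, and the import genes rest on 115 to 20458 reads per library, PAM16 having the fewest. On the first principal component, which held 61.0% of the variance, shTPD52 replicate 2 lay at 0.291, between the shCtrl libraries (-24.1 to -16.4) and shTPD52 replicates 1 and 3 (27.3 and 35.3). Counts over the import genes and the other lists are therefore also given without that library. It was singled out for lying nearest the shCtrl libraries, so more calls without it follow from the choice and are no further support. Over all genes, calls rose from 2341 to 5825 without it. In these bulk samples fewer cells of a kind and less RNA per cell cannot be told apart.

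With TPD52 lowered, 4 of the 33 import genes rose and 2 fell, while 27 missed the threshold. TOMM40, the channel of TOM, TIMM23 and TIMM50, the channel and receptor of TIM23, and TIMM9, a small TIM chaperone, rose 1.25-fold to 1.40-fold in mean FPKM. TOMM40L, a paralog of the channel, and PAM16, a regulator of the motor, fell to 0.722 and 0.617 times the control mean. Over all tested genes 5.63% were called higher and 12.7% lower, against 12.1% and 6.06% of the import genes. The median log2 fold change of the import genes was 0.13, beside -0.11 for all tested genes, and 25 of 33 had a value above 0, beside 36.8% of all genes. The shTPD52 libraries lay wholly above the shCtrl libraries for 10 import genes (30.3%, against 13.8% of all tested genes) and wholly below for 4 (12.1%, against 28.3%). Without shTPD52 replicate 2, 15 import genes were called higher and 4 lower, beside 12.6% and 32.9% of all genes. The 6 genes named above were among them, with the same directions. By complex, the counts without that library were 3 higher and 2 lower in TOM, 2 higher in the oxidation pathway, 4 higher among the small TIM genes, 1 lower in TIM22, 4 higher in TIM23, and 2 higher and 1 lower in the motor. SAM and the peptidase had 0 in either direction there.

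**Figure D1:**
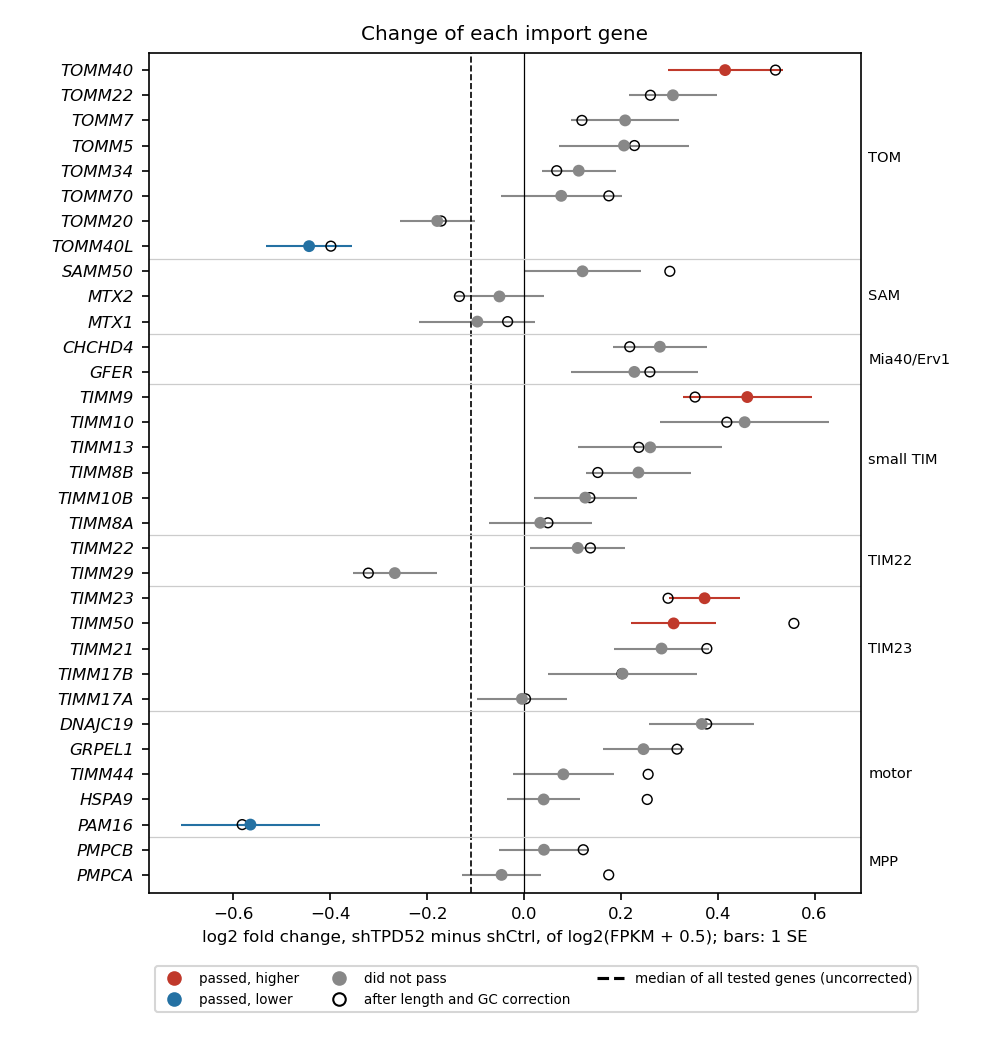
Log2 fold change of each of the 33 import genes (x axis, log2(FPKM + 0.5), shTPD52 minus shCtrl), ordered by complex. Filled points are the fitted values with bars of 1 SE, coloured by whether the gene passed, open points are values after a correction for gene length and GC content, and the dashed line is the median of all tested genes at -0.11. TOMM40, TIMM9, TIMM23 and TIMM50 passed as higher, TOMM40L and PAM16 as lower.

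The scale of the comparison matters for these directions. Scaling the libraries by median ratios moved the median of all genes from -0.11 to 0.00 and the overall split from 720 higher and 1621 lower to 1083 higher and 1038 lower. A median of all genes near 0 is set by such scaling itself and is no finding. On that scale 8 import genes were higher and 1 lower (8.47% and 8.12% of all genes), the median of the import genes was 0.24, and 29 of 33 were above 0. Gene length also went with the changes. Of 4 length bins of equal size, the shortest, up to 2508 bases of exon, had a median log2 fold change of 0.08 over all tested genes, and the longest, from 6917 bases, had -0.26. The import genes are shorter (median 3278 bases) than the tested genes (median 4425 bases), and 12 and 13 of them fall in the shortest and the second bin. Within those bins the import genes had medians of 0.25 and 0.13, where all genes had 0.08 and -0.04. After each library's trend on length and GC content was removed, 5 import genes were higher and 3 lower (10.4% and 10.3% of all genes), with a median of 0.20 beside 0.01 for all genes. Removing the trends likewise brings the median of all genes near 0 by construction. The share of reads from the mitochondrial genome was 17.9% ± 0.53 (SD, n = 3) in shCtrl and 22.1% ± 2.37 (n = 3) in shTPD52 libraries (exact permutation test, two-sided, p = 0.1, the smallest that 3 against 3 allow). Rescaling to the other reads gave 8 import genes higher and 2 lower (7.64% and 9.51% of all genes). The part of mitochondrial read share in the import gene values was otherwise not tested.

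**Figure D2:**
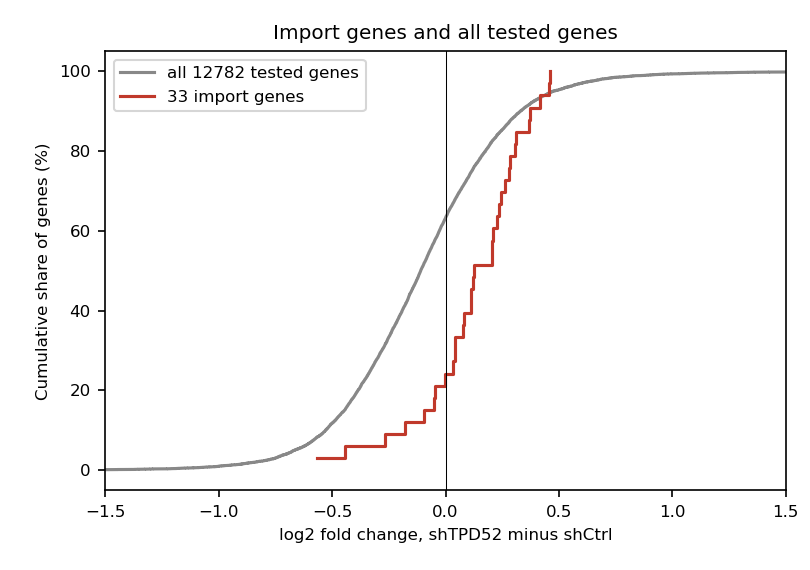
Cumulative share of genes (y axis, percent) by log2 fold change (x axis, shTPD52 minus shCtrl) for the 33 import genes and for all 12782 tested genes. The import curve lies to the right of the curve of all genes over most of its range, with medians of 0.13 and -0.11, and ends at 0.46.

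Sequences upstream of the 6 import genes that passed are shown because these genes moved in the same contrast and differ in direction. Each line gives 250 bases on the gene's strand, 5′ to 3′, across the RefSeq start and ending at base 24 of the transcript (RefSeq, GRCh38.p14). The windows are chr19:44891028-44891277 (plus strand), chr10:45972263-45972512 (plus), chr19:39480612-39480861 (plus), chr14:58427508-58427757 (minus), chr1:161225834-161226083 (plus) and chr16:4351298-4351547 (minus). Capitals mark letters that match one of the motifs named after the sequences.
TOMM40: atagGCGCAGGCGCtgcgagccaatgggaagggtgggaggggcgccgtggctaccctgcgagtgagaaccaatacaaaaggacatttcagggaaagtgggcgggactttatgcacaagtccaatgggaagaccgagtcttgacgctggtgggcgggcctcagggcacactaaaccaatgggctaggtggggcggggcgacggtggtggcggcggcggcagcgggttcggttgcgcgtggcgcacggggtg
TIMM23: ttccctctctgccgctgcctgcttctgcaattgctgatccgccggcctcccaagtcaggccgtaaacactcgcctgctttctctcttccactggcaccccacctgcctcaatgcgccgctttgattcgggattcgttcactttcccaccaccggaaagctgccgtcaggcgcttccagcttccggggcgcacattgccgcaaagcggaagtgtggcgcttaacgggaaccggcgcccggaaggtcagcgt
TIMM50: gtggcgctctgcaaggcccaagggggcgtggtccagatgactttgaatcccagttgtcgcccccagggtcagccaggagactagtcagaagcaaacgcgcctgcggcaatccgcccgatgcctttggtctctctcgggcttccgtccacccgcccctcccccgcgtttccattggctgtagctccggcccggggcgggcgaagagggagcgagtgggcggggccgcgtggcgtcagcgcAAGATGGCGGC
TIMM9: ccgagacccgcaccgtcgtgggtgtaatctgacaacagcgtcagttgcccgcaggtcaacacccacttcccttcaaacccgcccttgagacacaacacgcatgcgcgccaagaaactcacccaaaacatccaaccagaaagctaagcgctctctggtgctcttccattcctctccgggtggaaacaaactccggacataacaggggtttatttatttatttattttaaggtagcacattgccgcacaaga
TOMM40L: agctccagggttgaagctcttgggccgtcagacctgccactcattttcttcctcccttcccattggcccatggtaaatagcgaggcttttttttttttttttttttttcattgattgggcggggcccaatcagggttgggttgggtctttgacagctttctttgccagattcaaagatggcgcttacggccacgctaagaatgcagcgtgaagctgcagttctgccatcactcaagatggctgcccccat
PAM16: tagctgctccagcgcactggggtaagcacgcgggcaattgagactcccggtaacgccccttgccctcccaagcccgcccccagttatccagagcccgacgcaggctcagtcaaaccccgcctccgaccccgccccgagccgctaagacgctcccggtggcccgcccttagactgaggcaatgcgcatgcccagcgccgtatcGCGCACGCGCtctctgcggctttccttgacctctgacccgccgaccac
Both strands were searched, over 250 bases before and 50 after each start, for motifs of factors tied to mitochondrial genes and to adrenal genes. The NRF1 motif was in 7 of 33 import promoters and in 5.78% of the 35116 promoters in the RefSeq table. The GABP motif CCGGAAGT was in 6 of 33 and 4.14%, and the YY1 motif in 4 of 33 and 1.43%. The NR5A1 motif CAAGGTCA was in 0 of 33 and 1.28%. The 35116 promoters were not limited to genes tested here, whereas all 33 import genes were tested. The shares are therefore not matched for expression or GC content. The motif sets overlapped in TOMM20 and TIMM29, which held NRF1 and GABP matches. Of the genes that passed, TOMM40 held an NRF1 match at base -222, PAM16 one at base -24 and TIMM50 a YY1 match at base 14, counted from the start as base 1. TIMM23, TIMM9 and TOMM40L held none of these motifs in the window. NRF1-motif promoters thus included a gene that rose and a gene that fell, and a match is a string of letters, not a measured site.

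The outer membrane translocase is built on TOMM40, the barrel through which nearly all precursors pass. TOMM40 (ENSG00000130204, GRCh38 chromosome 19, 44890569 to 44903689, plus strand) stood at 34.3, 34.45 and 35.1 FPKM in shCtrl and at 51.7, 38.2 and 50.3 FPKM in shTPD52 replicates 1, 2 and 3. The 3 control libraries lay close together, and shTPD52 replicate 2 was nearer to them than to its own group. The means were 34.6 ± 0.43 and 46.7 ± 7.42 FPKM (SD, n = 3 each), and the log2 fold change was 0.42 (SE 0.12, adjusted p = 0.0472 by limma). Without shTPD52 replicate 2 it was 0.55 (adjusted p = 0.00131 by limma), and without shTPD52 replicate 1 it was 0.34 (adjusted p = 0.155 by limma). The table also lists 3 pseudogenes of TOMM40, with means of up to 2.78 FPKM, so some exchange of reads is possible.

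TOMM40L, a paralog of the channel whose role is less well known, went the other way. TOMM40L (ENSG00000158882, chromosome 1, 161225939 to 161230744, plus strand) stood at 8.95, 8.77 and 9.03 FPKM in shCtrl and at 6.59, 6.84 and 5.88 FPKM in shTPD52. All shTPD52 libraries were below all shCtrl libraries, with means of 8.92 ± 0.13 and 6.44 ± 0.50 FPKM (n = 3 each). Its log2 level fell by 0.44 (SE 0.09, adjusted p = 0.0201 by limma). Of its exon length, 20.1% is shared with NR1I3 on the opposite strand, which had a mean of 0.304 FPKM. Within a library the ratio of TOMM40 to TOMM40L does not depend on library scaling. It was 3.83, 3.93 and 3.89 in shCtrl and 7.84, 5.58 and 8.55 in shTPD52.

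TOMM22 and TOMM20, receptors of TOM that bind presequences, did not pass. TOMM22 stood at 17.9, 20.3 and 18.1 FPKM in shCtrl and at 25.2, 21.7 and 23.1 FPKM in shTPD52, a log2 fold change of 0.31 (adjusted p = 0.0528 by limma) without overlap. TOMM20 stood at 48.8, 49.6 and 46.2 FPKM in shCtrl and at 41.8, 45.3 and 40.4 FPKM in shTPD52, a log2 fold change of -0.18 (adjusted p = 0.129 by limma), also without overlap. The receptors thus lay on opposite sides of the controls. Their ratio, TOMM22 to TOMM20, was 0.390 ± 0.022 in shCtrl and 0.552 ± 0.065 in shTPD52 (n = 3 each). For this ratio and for that of TOMM40 to TOMM40L the exact two-sided permutation p was 0.1, the smallest that 3 against 3 allow, and 0.25 after Benjamini-Hochberg adjustment over the 5 ratios computed. These ratios were chosen after the values were seen. The others, TIMM17B to TIMM17A, TIMM8B to TIMM8A and TIMM23 to TIMM23B, overlapped between groups (exact permutation p = 0.4, 0.4 and 1, adjusted p = 0.5, 0.5 and 1).

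**Figure D3:**
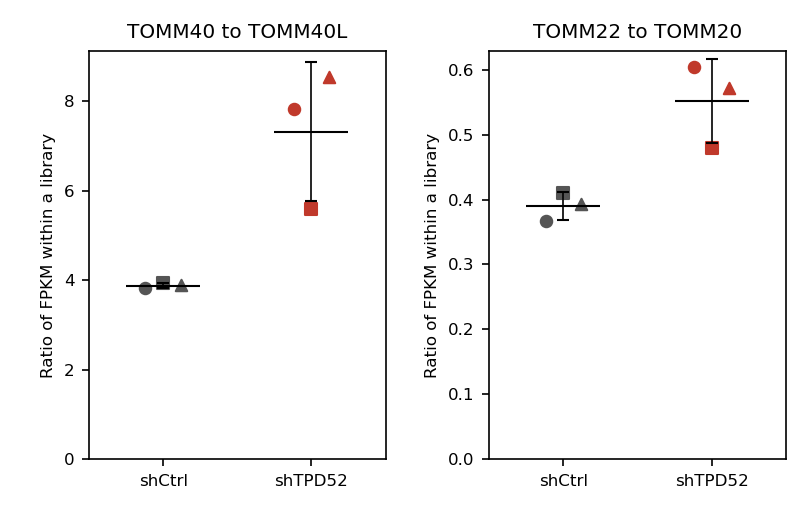
Ratio of FPKM within each library (y axis) of TOMM40 to TOMM40L (left) and TOMM22 to TOMM20 (right) in shCtrl and shTPD52. Points are libraries (circle, square and triangle for replicates 1, 2 and 3), lines are means and bars are 1 SD. All 3 shTPD52 libraries lie above all 3 shCtrl libraries in each plot, and replicate 2 is the lowest of the shTPD52 libraries.

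The remaining TOM genes did not pass. TOMM34, a cytosolic co-chaperone, and TOMM7, a small subunit, had the highest levels of all import genes. TOMM34 stood at 117, 112 and 118 FPKM in shCtrl and at 130, 117 and 129 FPKM in shTPD52 (log2 fold change 0.11, adjusted p = 0.301 by limma). TOMM7 stood at 108, 101 and 99.2 FPKM in shCtrl and at 118, 102 and 138 FPKM in shTPD52 (0.21, adjusted p = 0.205 by limma). The groups overlapped in both. TOMM70, the receptor for carriers, had a log2 fold change of 0.08 and TOMM5, another small subunit, of 0.21. TOMM5 was the lowest of the import genes in shCtrl at 1.48 ± 0.21 FPKM (n = 3). Its exons sum to 3644 bases over all annotated transcripts, and the length recovered from its FPKM was 3606 bases.

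No SAM gene passed in limma, and 0 of 3 had an unadjusted p under 0.05. The SAM complex holds the barrel SAMM50 and the metaxins. MTX2 stood at 13.95, 16.4 and 15.3 FPKM in shCtrl and at 15.1, 13.7 and 15.2 FPKM in shTPD52. MTX1 stood at 9.43, 8.23 and 10.3 FPKM in shCtrl and at 9.08, 7.58 and 9.44 FPKM in shTPD52. The groups overlapped for both, with log2 fold changes of -0.05 and -0.10 (adjusted p = 0.709 and 0.576 by limma) that turned positive with median-ratio scaling. MTX1 has a pseudogene copy, MTX1P1, at a mean of 8.24 FPKM, so its level is uncertain. SAMM50 had 0.12 (adjusted p = 0.481 by limma).

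CHCHD4 (Mia40), the oxidoreductase that traps cysteine-rich proteins in the intermembrane space, and GFER, the sulfhydryl oxidase that recharges it, did not pass. CHCHD4 stood at 10.7, 10.5 and 12.1 FPKM in shCtrl and at 14.25, 12.3 and 14.2 FPKM in shTPD52, a log2 fold change of 0.28 (adjusted p = 0.0761 by limma) with no overlap. GFER stood at 5.72, 7.13 and 6.30 FPKM in shCtrl and at 8.58, 6.34 and 7.85 FPKM in shTPD52, a log2 fold change of 0.23 (adjusted p = 0.233 by limma) with overlap. With 1 library left out CHCHD4 ran from 0.25 to 0.35 and GFER from 0.14 to 0.34. The highest value of each, without shTPD52 replicate 2, was the only one that passed (adjusted p = 0.0137 and 0.0343 by limma), and the lowest of GFER was that without shTPD52 replicate 1 (adjusted p = 0.538 by limma).

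The small TIM chaperones carry hydrophobic precursors across the intermembrane space, as complexes of TIMM9 with TIMM10 and of TIMM8A with TIMM13. Of 6 genes, 1 rose and 5 did not pass, and all had log2 fold changes above 0, with a median of 0.25. TIMM9 (ENSG00000100575, chromosome 14, 58408494 to 58427614, minus strand) was measured at 12.2, 11.2 and 9.44 FPKM in shCtrl and at 17.4, 13.05 and 15.4 FPKM in shTPD52. Its log2 level rose by 0.46 (SE 0.13, adjusted p = 0.0489 by limma), from 10.96 ± 1.41 to 15.3 ± 2.19 FPKM (n = 3 each). Correction for length and GC content ended that call (0.35, adjusted p = 0.0801 by limma). TIMM9 shares 14.9% of its exon length with KIAA0586 and 11.5% with TOMM20L, both on the opposite strand. TIMM10, its partner, had a log2 fold change of 0.46 that did not pass (adjusted p = 0.0974 by limma), with means of 30.1 ± 2.59 and 42.3 ± 11.5 FPKM. Its value in shTPD52 replicate 3, 55.2 FPKM, stood above 38.2 and 33.4 FPKM in replicates 1 and 2. Without that library TIMM10 was at 0.25 and TIMM9 at 0.45 (adjusted p = 0.168 and 0.109 by limma).

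TIMM8B and TIMM13 had the highest levels of the small TIM genes. TIMM8B stood at 54.2, 48.6 and 56.2 FPKM in shCtrl and at 68.0, 54.0 and 66.0 FPKM in shTPD52 (log2 fold change 0.24, adjusted p = 0.146 by limma). TIMM13 stood at 46.7, 40.2 and 44.1 FPKM in shCtrl and at 57.3, 41.0 and 61.1 FPKM in shTPD52 (0.26, adjusted p = 0.228 by limma). In both genes shTPD52 replicates 1 and 3 were above every control and replicate 2 was among them. Without replicate 2 they were at 0.34 and 0.44 (adjusted p = 0.0124 and 0.00585 by limma), and without replicate 3 at 0.20 and 0.15 (adjusted p = 0.308 and 0.518 by limma). TIMM8A, the gene mutated in deafness-dystonia syndrome, had 0.03 and TIMM10B, a subunit at the TIM22 complex, 0.13.

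Neither gene of the carrier translocase passed, with 1 of 2 at an unadjusted p under 0.05. TIMM22, its channel, stood at 11.5, 10.7 and 11.9 FPKM in shCtrl and at 11.2, 12.2 and 13.7 FPKM in shTPD52 (log2 fold change 0.11, adjusted p = 0.428 by limma). TIMM29, a subunit that holds the complex together, stood at 11.2, 11.8 and 11.2 FPKM in shCtrl and at 10.2, 8.97 and 9.002 FPKM in shTPD52 (-0.27, adjusted p = 0.0667 by limma). TIMM29 was lower in every shTPD52 library than in any control, and passed once length and GC content were corrected for (-0.32, adjusted p = 0.0289 by limma), while with median-ratio scaling it was at -0.15 (adjusted p = 0.262 by limma).

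The presequence translocase had 2 risers among 5 genes and none that fell. TIMM23 (ENSG00000265354, chromosome 10, 45972449 to 46003734, plus strand) stood at 44.2, 43.1 and 47.6 FPKM in shCtrl and at 57.0, 58.1 and 59.9 FPKM in shTPD52. Its 3 shTPD52 libraries lay close together, replicate 2 among them. Its log2 level rose by 0.37 (SE 0.07, adjusted p = 0.0189 by limma), from 45.0 ± 2.39 to 58.3 ± 1.45 FPKM (n = 3 each). Its copy TIMM23B was at 0.976 ± 0.155 and 1.36 ± 0.48 FPKM, and reads can be exchanged between the copies. TIMM50 (ENSG00000105197, chromosome 19, 39480412 to 39493785, plus strand), which hands presequences to the channel, stood at 10.6, 10.4 and 10.6 FPKM in shCtrl and at 13.4, 12.0 and 14.1 FPKM in shTPD52. It rose by 0.31 (SE 0.09, adjusted p = 0.0461 by limma), and by 0.56 once corrected for length and GC content (adjusted p = 0.0152 by limma). The TIMM50 call was lost with the replicate block (adjusted p = 0.0505), without the variance trend (0.0625), in the unfiltered fit (0.0985), and when a single library apart from shTPD52 replicate 2 was left out (0.116 to 0.151, all by limma).

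The TIMM17 paralogs, alternative partners of TIMM23, did not pass. TIMM17A stood at 18.3, 21.4 and 21.5 FPKM in shCtrl and at 19.1, 21.2 and 20.7 FPKM in shTPD52, a log2 fold change of -0.0042 (adjusted p = 0.979 by limma) whose sign flips with each scaling alternative. TIMM17B had 0.20 (adjusted p = 0.355 by limma), with 12.5, 9.28 and 14.7 FPKM in shTPD52 against 10.3 ± 0.49 in shCtrl. TIMM21, which links TIM23 to TOM, had 0.28 (adjusted p = 0.076 by limma) and did not overlap, with means of 3.803 ± 0.12 and 4.75 ± 0.39 FPKM.

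Of the motor genes 1 fell and 4 did not pass. PAM16 pairs with the J-protein DNAJC19 and holds back its stimulation of mtHSP70. PAM16 (ENSG00000217930, chromosome 16, 4331549 to 4355607, minus strand) was measured at 2.80, 2.38 and 2.45 FPKM in shCtrl and at 1.90, 1.53 and 1.28 FPKM in shTPD52. Its log2 level fell by 0.56 (SE 0.14, adjusted p = 0.0352 by limma), resting on 170 to 224 reads in each control library and 115 to 131 in each knockdown library. The call ended with median-ratio scaling (-0.47, adjusted p = 0.0525 by limma). PAM16 shares 522 exon bases with the read-through gene CORO7-PAM16, so its level is uncertain. DNAJC19 had a log2 fold change of 0.37 (adjusted p = 0.0519 by limma), without overlap, at 9.10, 9.43 and 9.19 FPKM in shCtrl and 12.97, 10.3 and 13.1 FPKM in shTPD52. The partners PAM16 and DNAJC19 were thus on opposite sides of the controls, but only PAM16 passed. The difference between them was not tested. DNAJC19 has 3 measured pseudogenes, with means that sum to 5.51 FPKM, so its level is uncertain as well.

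HSPA9, the mtHSP70 that pulls precursors inward, was the most abundant motor RNA. It stood at 53.1, 53.6 and 51.4 FPKM in shCtrl and at 54.8, 57.3 and 50.8 FPKM in shTPD52, a log2 fold change of 0.04 (adjusted p = 0.717 by limma). After the length and GC correction HSPA9, the longest import gene at 8254 bases, had 0.25 (adjusted p = 0.0503 by limma), and with quantile normalization 0.00026. GRPEL1, its nucleotide exchange factor, stood at 14.2, 13.3 and 12.6 FPKM in shCtrl and at 16.3, 15.2 and 16.3 FPKM in shTPD52. The groups did not overlap, and the log2 fold change was 0.25 (adjusted p = 0.0715 by limma). TIMM44, which ties the motor to the channel, had 0.08 (adjusted p = 0.592 by limma).

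PMPCA and PMPCB, the subunits of the peptidase that clips presequences, did not pass. PMPCA stood at 17.5, 18.6 and 19.5 FPKM in shCtrl and at 18.3, 16.9 and 18.6 FPKM in shTPD52 (log2 fold change -0.05, adjusted p = 0.7 by limma), its sign flipping with each scaling alternative. PMPCB stood at 14.4, 12.5 and 13.1 FPKM in shCtrl and at 12.8, 14.8 and 13.5 FPKM in shTPD52 (0.04, adjusted p = 0.766 by limma). The groups overlapped in both, and 0 of 2 had an unadjusted p under 0.05.

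**Figure D4:**
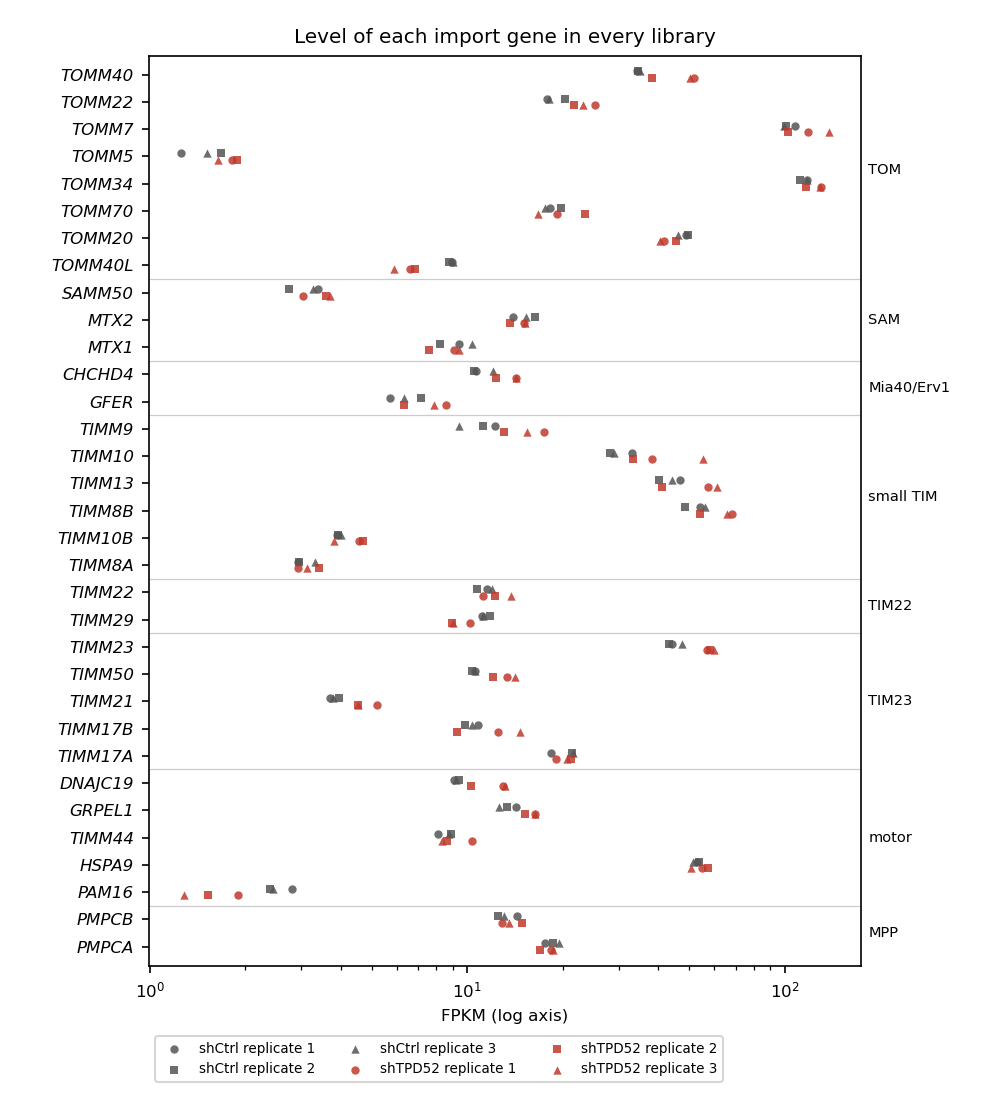
FPKM (x axis, log scale) of each of the 33 import genes in every library, ordered by complex. Grey symbols are shCtrl and red symbols shTPD52, with circle, square and triangle for replicates 1, 2 and 3. TIMM23, TOMM40L and PAM16 show no overlap of the groups, while HSPA9, PMPCA and PMPCB do overlap.

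The position of shTPD52 replicate 2 recurred across members. Among the 10 import genes whose groups did not overlap and that were higher, replicate 2 was the lowest shTPD52 library in 8, against 57.1% of all such genes. Among the 25 import genes with a log2 fold change above 0 it was the lowest in 14 (56.0%), close to the 50.1% of all such genes. Summed over the 33 import genes, the level was 780, 757 and 772 FPKM in shCtrl and 889, 800.3 and 919 FPKM in shTPD52. The mitochondrial read share, 22.5%, 19.6% and 24.3% in shTPD52 replicates 1, 2 and 3, had the same order as these sums. Leaving out any 1 other library left 0 or 1 import genes called in each direction, as the calls over all genes dropped from 2341 to between 87 and 897. TIMM23 and TOMM40L kept their calls without shTPD52 replicate 3, and no import gene was called without any 1 of the shCtrl libraries or shTPD52 replicate 1.

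Other genes of import and of its clients were taken from 6 lists of 76 genes, of which 69 were tested. In all, 5 rose, 3 fell and 61 did not pass (5.63% and 12.7% of all tested genes rose and fell), with a median log2 fold change of 0.11. Accessory import genes (16, with 12 tested) had none that passed in limma, 0 at an unadjusted p under 0.05 and 0 in limma-voom. The most abundant, ROMO1, a small inner membrane protein, had means of 125 ± 10.9 and 146 ± 25.7 FPKM (n = 3 each) in shCtrl and shTPD52. Among 15 matrix chaperones and proteases, 1 rose and 1 fell. HSPE1, the co-chaperonin that caps HSPD1, rose by 0.54 (adjusted p = 0.0291 by limma), from 5.14 ± 0.63 to 7.71 ± 1.02 FPKM. SPG7, a subunit of the inner membrane AAA protease, fell by 0.33 (adjusted p = 0.0484 by limma). Of 8 tested MICOS and cristae genes only CHCHD3, a MICOS subunit, passed, rising by 0.31 (adjusted p = 0.0319 by limma).

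Clients of the import routes were examined next. Among 10 carriers inserted by TIM22, SLC25A13, the aspartate-glutamate carrier, rose by 0.36 (adjusted p = 0.0322 by limma) and SLC25A20, the carnitine-acylcarnitine carrier, fell by 0.45 (adjusted p = 0.0163 by limma). The remaining 8 did not pass. None of the 12 CHCHD4 substrates passed in limma (5 had an unadjusted p under 0.05, and 1 passed in limma-voom), and all 12 had log2 fold changes above 0 with a median of 0.25. Their most abundant member, NDUFS5 of complex I, had means of 268 ± 25.7 and 348 ± 78.8 FPKM in shCtrl and shTPD52 (0.36, adjusted p = 0.129 by limma). Without shTPD52 replicate 2, 8 of the 12 were called higher. Of 12 tested regulators of mitochondrial gene expression and stress, 2 rose, 1 fell and 9 did not pass. TFB2M, a mitochondrial transcription factor, rose by 0.44 (adjusted p = 0.0399 by limma) and ATF5, a factor of the mitochondrial unfolded protein response, by 0.38 (adjusted p = 0.0344 by limma). PPRC1, a PGC-1 family coactivator, fell by 0.36 (adjusted p = 0.047 by limma). Without shTPD52 replicate 2, 20 of the 69 genes were called higher and 7 lower, beside 12.6% and 32.9% of all genes.

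Genes that start close to a passing member were read beside it. Starts of neighbours and members, here and below, are the outer bounds of the annotated genes, not the RefSeq starts of the printed sequences. For TOMM40, TIMM50 and PAM16 that bound lies outside the printed window. TIMM9 starts 229 bases from KIAA0586, a ciliary gene on the opposite strand, which had a log2 fold change of -0.29 (adjusted p = 0.175 by limma). TIMM23 starts close to the pseudogene PARGP1, on the opposite strand, which had -0.56 (adjusted p = 0.0585 by limma). TOMM40 starts 307 bases from an antisense RNA with no symbol, with means of 0.660 and 0.365 FPKM, under the filter. Neither tested neighbour passed. Neighbours shared some exon bases with TIMM9, and without a stated strand setting reads of opposite genes cannot be told apart.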

How the data were processed

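RNA of 6 libraries was measured as FPKM, which the authors deposited in 1 table with 1 column per library. Build GRCh38 (hg38), featureCounts 2.0.3 and HISAT2 2.2.1 are named in the submitters' processing notes, with no role stated. Strand setting and annotation release: not given in the sources used here. Gene identifiers were matched to symbols and to GENCODE release 29. Groups and replicate numbers came from the sample titles, and since no label calls the replicates separate cultures, the p-values cover the spread among these samples alone, possibly technical.

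Genes averaging 1 FPKM or more were tested with limma 3.58.1 (R 4.3.3) on log2(FPKM + 0.5), a scale that understates the change of low genes, with an intensity trend, two-sided, and Benjamini-Hochberg adjustment over all genes tested at a threshold of 0.05. TPD52 lay under the filter and was added to a fit of 12783 genes. Reads were worked back from the FPKM as whole multiples of the value of 1 read, at the GENCODE length for 55.2% of genes and at a searched length otherwise. Odd numbers made up 28.2% to 31.2% of counts from 1 to 20, so mates may have been counted singly and the reads may stand for fewer fragments. A floor of 3 reads is 0.039 to 0.051 FPKM for a gene of 2 kb and covers counting error only.

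The rule for named genes took TPD52, all members, per-library values for passing members and the 2 most abundant of each complex, up to 3 passing genes (or the most abundant) of each other list, and genes starting within 1000 bases of a passing member. Per-library values of TOMM22, TOMM20, TIMM10, TIMM17B and DNAJC19 were added after they were seen. Members and lists were chosen with earlier results of these data known. Alternatives were a pseudocount of 1 or 0.1, a filter of 5 FPKM or none, median-ratio, quantile and non-mitochondrial scaling, removal of each library's loess trend (span 0.3) on length and GC content (known for 99.4% of tested genes), no variance trend, the replicate number as a block, limma-voom on the recovered reads, and leaving out each library. The fit was also run on simulated reads with known changes, drawn with a common spread and otherwise the same profile in every library. Such reads hold no library like shTPD52 replicate 2 and no length trend. That run therefore cannot show how far the calls here depend on either.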

Additional observations from a re-analysis of the deposited data

How the results depend on the processing

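The count of import genes called higher (4) was 1 without a filter or without the variance trend, 8 with median-ratio scaling or rescaling to non-mitochondrial reads, and 9 with quantile normalization. The count called lower (2) was 0 without a filter and 1 with a filter of 5 FPKM, median-ratio scaling or quantile normalization. Leaving out 1 library gave 0 to 15 import genes higher and 0 to 4 lower, with the upper ends without shTPD52 replicate 2. All genes called (2341) were 531 without a filter and 87 to 5825 with 1 library left out. TPD52 lost its call without a filter (-0.65, adjusted p = 0.067 by limma), under a filter of 5 FPKM (-0.65, adjusted p = 0.0616 by limma) and once corrected for length and GC content (-0.48, adjusted p = 0.0818 by limma). With 1 library left out its log2 fold change was -0.70 to -0.60, and its call held only without shTPD52 replicate 2 (adjusted p from 0.0107 to 0.0996 by limma).

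The other pathway genes called higher (5) were 0 without a filter, 9 with median-ratio scaling, 11 with quantile normalization and 12 after the length and GC correction. Those called lower (3) were 1 without a filter, with rescaling to non-mitochondrial reads or with the replicate block, and 0 with median-ratio scaling. With 1 library left out they were 0 to 20 higher and 0 to 7 lower.

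None of the 6 passing members changed sign in any of 17 alternatives (16 for PAM16, which the filter of 5 FPKM removed). The filters, the variance trend and the replicate block leave the fold change as it is, so no sign could change there. Calls held in 13 alternatives for TIMM23, 12 for TOMM40L, 10 for TOMM40, 9 for TIMM50 and 8 for TIMM9 and PAM16. Adjusted p over their alternatives was 0.0058 to 0.0794 for TIMM23, 0.00378 to 0.0998 for TOMM40L, 0.00131 to 0.155 for TOMM40, 0.00548 to 0.151 for TIMM50, 0.00855 to 0.168 for TIMM9 and 0.024 to 0.118 for PAM16 (limma). TIMM9 also lost its call with a pseudocount of 0.1, and PAM16 with quantile normalization. Signs that turned belonged to 8 members that did not pass. With median-ratio scaling MTX1 was 0.021, MTX2 0.069, PMPCA 0.074 and TIMM17A 0.12, and with quantile normalization 0.032, 0.033, 0.025 and 0.057. On rescaling to non-mitochondrial reads MTX2 was 0.024, PMPCA 0.029 and TIMM17A 0.071. Corrected for length and GC content, PMPCA was 0.17 and TIMM17A 0.0032. With a library left out the values ran from -0.11 to 0.0020 (MTX2), -0.014 to 0.095 (PMPCB), -0.079 to 0.040 (TIMM17A), -0.010 to 0.14 (TIMM44), -0.016 to 0.081 (TIMM8A) and -0.050 to 0.19 (TOMM70). Where no construction of the alternative shows it, the cause was not tested.

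The replicate number as a block gave 4 import genes higher and 2 lower, and 3064 of all genes. The 4 are not the same genes, since TIMM50 lost its call (adjusted p = 0.0505) and DNAJC19 gained one (adjusted p = 0.0482 by limma). Same-numbered libraries had correlations of their deviations from the group means of 0.05, 0.25 and 0.02 for replicates 1, 2 and 3. The same number was the best match in the other group for shTPD52 replicates 1 and 2 and shCtrl replicates 2 and 3. It was not for shTPD52 replicate 3 and shCtrl replicate 1. The evidence on pairing was mixed, and the main fit left the libraries unpaired.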

Other observations

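Several import genes start within 1000 bases of a protein-coding gene on the other strand, and 9 such pairs had both genes tested. In 3 of them the neighbour passed while the import gene did not, pairs singled out after their values were seen. Of all tested genes 18.3% were called in either direction. TIMM8B starts 25 bases from SDHD, a subunit of complex II. SDHD rose, with means of 3.81 ± 0.61 and 6.20 ± 0.34 FPKM (SD, n = 3 each) in shCtrl and shTPD52, and its log2 fold change was 0.64 (adjusted p = 0.0179 by limma), beside 0.24 for TIMM8B. CHCHD4 starts 70 bases from TMEM43, an inner nuclear membrane protein gene, which fell by 0.37 (adjusted p = 0.0234 by limma), beside 0.28 for CHCHD4. MTX1 starts 352 bases from THBS3, a thrombospondin gene, which fell by 0.73 (adjusted p = 0.0214 by limma), beside -0.10 for MTX1.

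The ratio of CHCHD4 to TMEM43 within a library was 0.295, 0.278 and 0.313 in shCtrl and 0.502, 0.395 and 0.521 in shTPD52. The groups did not overlap in this ratio. The ratio of MTX1 to THBS3 was 1.80 ± 0.20 in shCtrl and 2.98 ± 0.37 in shTPD52, and that of TIMM8B to SDHD was 14.2 ± 3.32 and 10.1 ± 0.70 (n = 3 each). Exact two-sided permutation p was 0.1, the smallest that the design allows, for these ratios and also for those of TIMM9 to KIAA0586, TIMM10B to ARFIP2 and TIMM17B to PQBP1, 6 of the 9 pairs (0.15 after Benjamini-Hochberg adjustment over the 9). It was 0.3 to 0.6 for the other pairs. A permutation p of 0.1 means groups that do not overlap, as in the levels of 13.8% (higher) and 28.3% (lower) of all tested genes. The share over ratios of other gene pairs was not computed. TIMM8B shares 26 exon bases with SDHD and 351 with NKAPD1, and MTX1 shares 146 with THBS3, so part of these reads may be exchanged between genes.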
